A study of Mus musculus with 15 samples.

Results

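The slow-twitch isoform genes of the contractile and calcium apparatus were followed in the quadriceps muscle of 15 single mice. They are Tnnt1, Tnni1, Tnnc1, Tpm3, Myl2, Myl3, Atp2a2, Myoz2 and Casq2. The rule names the genes and uses no measured level, although the list was drawn up with earlier results of these data known, and all 9 were present among the 39179 genes counted in each mouse. The study compared wild-type (WT) mice with homozygous Mrps5 V338Y knock-in mice, which carry a ribosomal ambiguity mutation in a protein of the small subunit of the mitochondrial ribosome, both on the C57BL/6 background. RNA was sequenced from 4 WT and 4 V338Y mice at 3 mo of age and from 3 WT and 4 V338Y mice at 19 mo. The knock-in is in the germline, and each library came from 1 mouse, named below by its genotype, its age and the mouse number of its label.

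Skeletal muscle mixes fast fibers with slow, oxidative type I fibers, and each type builds its sarcomere from its own set of genes. In slow fibers troponin T, I and C are encoded by Tnnt1, Tnni1 and Tnnc1, a tropomyosin by Tpm3, and the regulatory and essential myosin light chains by Myl2 and Myl3, alongside the slow myosin heavy chain Myh7. Atp2a2 encodes SERCA2, the calcium pump of slow and cardiac muscle, Casq2 the cardiac and slow calsequestrin that buffers calcium in the sarcoplasmic reticulum, and Myoz2 a calcineurin-binding protein of the Z-disc. Quadriceps of the mouse is a predominantly fast muscle, in which fast counterparts of these genes dominate. Signalling through calcineurin and NFAT, the MEF2 factors and the TEAD factors that bind MCAT elements are known regulators of the slow program.

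Regulatory DNA next to the start sites was available from RefSeq (build GRCm38.p6) for 8 of the 9 genes. The stretches below lie upstream of the start of 4 of them, written on the strand of the gene, and were cut where an annotated exon begins. They are shown because Tnnt1, Tnnc1 and Myl3 are troponin and light chain genes that varied together from mouse to mouse, whereas Casq2 followed them least. Capitals mark matches to MCAT (CATTCC), MEF2 and CArG motifs on either strand. The stretch of Tnnt1 is chr7:4516005-4516225 on the minus strand, that of Tnnc1 is chr14:31208062-31208311 on the plus strand, that of Myl3 is chr9:110763428-110763645 on the plus strand, and that of Casq2 is chr3:102086165-102086414 on the plus strand.
Tnnt1: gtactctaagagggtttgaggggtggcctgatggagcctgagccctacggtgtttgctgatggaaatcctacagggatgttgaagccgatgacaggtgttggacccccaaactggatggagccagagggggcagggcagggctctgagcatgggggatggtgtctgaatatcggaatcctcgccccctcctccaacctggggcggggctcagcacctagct
Tnnc1: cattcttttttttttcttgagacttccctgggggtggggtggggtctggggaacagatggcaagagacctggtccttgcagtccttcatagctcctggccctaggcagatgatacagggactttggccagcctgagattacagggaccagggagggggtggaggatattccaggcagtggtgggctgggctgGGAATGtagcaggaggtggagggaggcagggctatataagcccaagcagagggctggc
Myl3: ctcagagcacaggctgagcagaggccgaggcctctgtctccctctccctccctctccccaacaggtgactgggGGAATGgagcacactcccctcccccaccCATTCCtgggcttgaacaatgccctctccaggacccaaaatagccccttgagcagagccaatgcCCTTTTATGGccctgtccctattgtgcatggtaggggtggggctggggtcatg
Casq2: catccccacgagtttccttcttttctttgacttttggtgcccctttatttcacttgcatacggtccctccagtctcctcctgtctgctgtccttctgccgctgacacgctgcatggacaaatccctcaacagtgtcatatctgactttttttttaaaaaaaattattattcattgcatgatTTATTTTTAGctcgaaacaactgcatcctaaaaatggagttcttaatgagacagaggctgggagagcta

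Within the 250 bases upstream of each start, Myl3 held 2 matches to MCAT and 1 to the CArG motif, and Tnnc1 held 1 match to MCAT. Casq2 and Myoz2 each held 1 match to MEF2, and none of the other 6 genes with a promoter sequence did. Of 27025 promoters of the same length, 12.6% held MCAT, 3.01% MEF2 and 1.40% CArG. The short E-box (CANNTG) was found in all 8 genes against 66.0% of promoters, and the NFAT core (GGAAA) in 5 of 8 against 55.6%. Apart from the common E-box, none of these motifs was found in all 8 genes with a promoter sequence, and the first sequence listed for Myl2 lies 8227 bases from the nearest start annotated for that gene. These matches describe the letters of the windows only.

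The data were expected counts per gene, from 8250653 to 18968132 per mouse, and levels are given as CPM, counts scaled by the TMM-adjusted depth of each library. Counts of a gene in bulk muscle cannot tell fewer fibers of a type from less RNA per fiber. Transcripts of the targeted gene Mrps5 were at 14.96 to 27.5 CPM in every mouse, and its counts do not show the amino acid change. The methods name female mice, but all 8 mice of 3 mo had the Y-linked Ddx3y at 163 to 202 CPM and Xist at no more than 0.575 CPM, and all 7 mice of 19 mo had Ddx3y at no more than 0.0827 CPM and Xist at 506 to 631 CPM. Age therefore cannot be told apart from sex in these libraries, and every comparison of 19 with 3 mo below carries both. Skeletal muscle markers (Ckm, Acta1 and 5 others) were at a sum of 127526 to 244817 CPM in all mice. Of 9 cardiac markers, Myl7, Nppa and Nppb had 0 counts in every mouse and the sum of the list was 4.38 to 16.6 CPM.

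Slow isoform genes were rare transcripts in most mice, and a few mice carried far more of them. Tnnt1, slow troponin T, was at 1.28, 2.55, 2.72 and 1.18 CPM in the WT mice of 3 mo and at 4.02, 6.67, 6.12 and 1.84 CPM in V338Y mice 1 to 4 of that age. At 19 mo its level was 3.23, 24.1 and 44.7 CPM in WT mice 2, 4 and 5, and 5.61, 0.536, 4.42 and 166 CPM in V338Y mice 2 to 5. The V338Y mice of 19 mo thus held both the lowest and the highest Tnnt1 level of the series. Tnni1, slow troponin I, was low in the young WT mice, at 0.456, 0.852, 0.597 and 0.453 CPM (5 to 12 counts). It was at 4.71, 4.29, 4.14 and 0.576 CPM in V338Y mice 1 to 4 of 3 mo, and 3 of these 4 mice were above every WT mouse of that age. At 19 mo Tnni1 was at 1.12, 15.5 and 29.5 CPM in WT mice 2, 4 and 5 and at 2.404, 0.201, 3.51 and 94.6 CPM in V338Y mice 2 to 5. The value of V338Y mouse 3 rested on 3 counts.

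The same mice stood out for Tnnc1, Myl2 and Myl3. Tnnc1, shared by slow and cardiac muscle, ranged from 0.134 CPM (2 counts) in V338Y mouse 3 of 19 mo to 120 CPM in V338Y mouse 5 of that age. Myl2, the slow regulatory light chain, ranged from 0.536 to 240 CPM between those same mice, and Myl3, the slow essential light chain, from 0.268 to 204 CPM. V338Y mice 2 and 3 of 3 mo had 30.9 and 21.2 CPM of Myl2 and 23.5 and 20.3 CPM of Myl3, above all WT mice of that age, which reached 6.17 and 4.25 CPM. The other pair of young V338Y mice had 5.402 and 3.23 CPM of Myl2 and 0.632 and 0.461 CPM of Myl3, so this group was split for the light chains.

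Tpm3 and Atp2a2, which are also used outside slow fibers, had higher and more even levels. In the WT mice of 3 mo Tpm3 was at 19.6 CPM ± 1.51 (SD, n = 4) and Atp2a2 at 52.7 CPM ± 2.58 (SD, n = 4). V338Y mouse 5 of 19 mo reached 272 CPM of Tpm3 and 652 CPM of Atp2a2, and WT mouse 5 of 19 mo 83.5 and 211 CPM. Scaled by transcript length, Atp2a2 was the most abundant member in young WT muscle with 8.67 CPM per kb and Tnni1 the least abundant with 0.164 CPM per kb (means of 4 mice). The fast pump gene Atp2a1 was at 2761 CPM per kb in the same mice, and the fast troponin I gene Tnni2 at 5500 CPM per kb.

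Myoz2 and Casq2 followed another pattern among the mice. Myoz2 was at 12.4, 16.0, 20.0 and 12.5 CPM in WT mice and at 17.2, 30.2, 17.5 and 19.0 CPM in V338Y mice of 3 mo. At 19 mo it was at 1.93, 12.2 and 107 CPM in WT mice 2, 4 and 5 and at 8.62, 5.70, 6.73 and 145 CPM in V338Y mice 2 to 5. Outside the mice numbered 5, Myoz2 was thus lower in every mouse of 19 mo than in all 8 mice of 3 mo. Casq2 was at 10.4, 11.9, 9.29 and 10.4 CPM in young WT mice and at 19.8, 16.7, 14.97 and 10.7 CPM in young V338Y mice. Its levels at 19 mo were 10.6, 11.2 and 37.0 CPM in WT mice 2, 4 and 5 and 26.2, 7.98, 7.93 and 55.4 CPM in V338Y mice 2 to 5. WT mouse 4 of 19 mo ranked 3 among the 15 mice for the other 7 members but 11 for Myoz2 and 8 for Casq2, and V338Y mouse 2 of 19 mo ranked 3 for Casq2 and 12 for Myoz2.

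**Figure D1:**
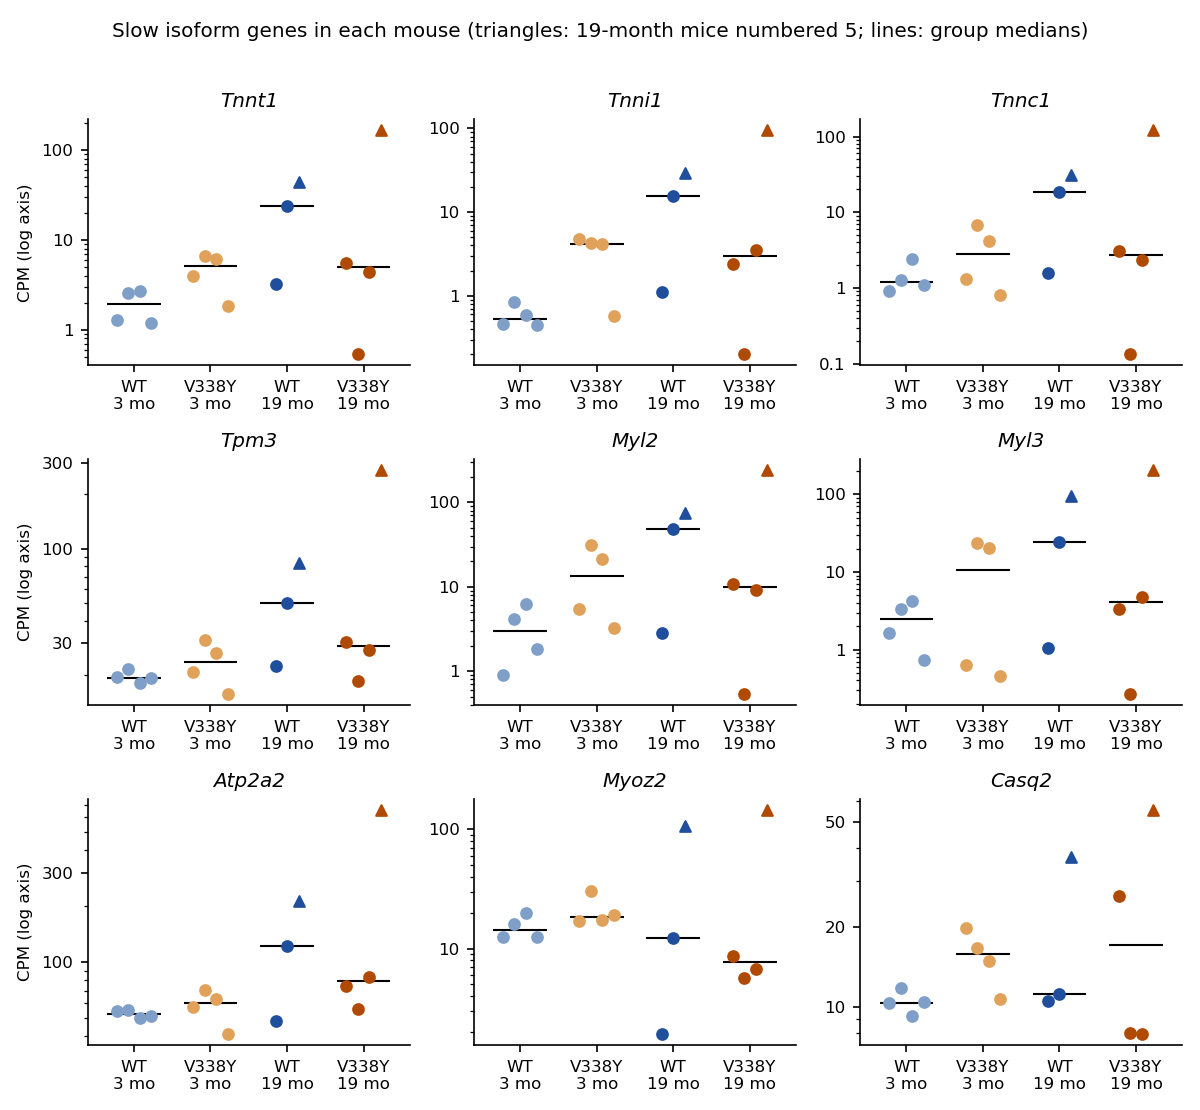
CPM (log axes) of the 9 slow isoform genes in each of 15 mice by genotype and age; points are mice, triangles the 19 mo mice numbered 5, lines group medians. The V338Y mouse numbered 5 is highest and the WT mouse numbered 5 second highest in all 9 panels, while Tnnt1 of V338Y mice of 19 mo runs from 0.536 to 166 CPM.

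Mouse 5 of each genotype at 19 mo was the highest of its group for every member. V338Y mouse 5 exceeded the next highest V338Y mouse of 19 mo by 42.3-fold for Myl3, 38.8-fold for Tnnc1, 29.6-fold for Tnnt1, 26.9-fold for Tnni1 and 22.2-fold for Myl2. The excess was smaller for Myoz2 (16.8-fold), Tpm3 (8.95-fold), Atp2a2 (7.88-fold) and Casq2 (2.11-fold). WT mouse 5 exceeded the next highest WT mouse of 19 mo by 8.72-fold for Myoz2, 3.95-fold for Myl3, 3.31-fold for Casq2 and 1.56- to 1.91-fold for the other 6. Myoz2 and Casq2 were within 1.36- and 1.50-fold of each other in these animals, whereas the other 7 members were 2.11- to 3.82-fold higher in V338Y mouse 5 than in WT mouse 5. V338Y mouse 5 was also the highest of the 15 mice for summed markers of neutrophils (545 CPM against 0 to 4.30 CPM in the WT mice), erythroid cells (707 CPM), Schwann cells (104 CPM) and satellite cells (21.9 CPM), and the lowest for fibroblasts (662 CPM) and tendon (56.6 CPM). WT mouse 5 was within the range of the other mice for neutrophil (4.30 CPM), erythroid (110 CPM) and Schwann cell markers (50.9 CPM). Its neutrophil sum was the highest of the WT mice but ranked 4 among all mice. Other V338Y mice of 19 mo thus also lay above every WT mouse for neutrophil markers. Both mice numbered 5 stood together for 3 lists, with the highest sums of smooth muscle markers (281 CPM in the WT and 224 CPM in the V338Y mouse), ranks 3 and 2 for endothelial markers (301 and 312 CPM) and the lowest sums of fibroblast markers (860 CPM in the WT mouse). The cardiac sum was highest in V338Y mouse 5, at 16.6 CPM, and ranked 4 in WT mouse 5, at 12.1 CPM. The part of these cells in the levels of the mice numbered 5 was not tested.

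The first question was whether V338Y mice of 3 mo differ from WT in the slow isoforms. All 9 members had a higher fitted level in V338Y mice, with log2 fold changes from 0.15 for Atp2a2 to 2.53 for Tnni1 and a median of 1.17, but none passed an adjusted p of 0.05 in edgeR's quasi-likelihood test. Over all 13333 genes tested, the median was -0.0026 and 0.075% passed. Tnni1 had the largest estimate, 2.53 ± 0.51 (SE), with an adjusted p of 0.16. Next were Myl2 at 2.16 ± 0.69, Myl3 at 2.11 ± 0.97, Tnnt1 at 1.25 ± 0.39 and Tnnc1 at 1.17 ± 0.58. Casq2 had a smaller difference of 0.59 ± 0.16 with an adjusted p of 0.365. An unadjusted p under 0.05 was reached by 4 members and by 1293 of all genes.

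In no member was every young V338Y mouse above every young WT mouse, an order that 2.48% of all tested genes showed. V338Y mouse 4 lay within or below the WT range for all 9 members, and without it Tnni1 passed the adjusted threshold. Tnni1 also passed when low genes were kept and in DESeq2, which made 33 and 66 calls among all genes against 10 in the main test. Among the fast counterparts, none of 9 passed, and their log2 fold changes ran from -0.02 for Casq1 to 0.23 for Mylpf. The fast troponin T gene Tnnt3 (0.12), the tropomyosin gene Tpm1 (0.14) and the fast regulatory light chain gene Mylpf were higher in every young V338Y mouse than in every young WT mouse, 3 of 9 genes against the 2.48% of all genes. Slow myosin Myh7 went with the light chains, at 30.2 and 27.2 CPM in V338Y mice 2 and 3 and 0.725 to 5.31 CPM in the other young mice of both genotypes. Its log2 fold change was 2.401 ± 0.961 (adjusted p = 0.473).

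At 19 mo the genotypes could not be told apart in any member. The 9 log2 fold changes were all positive, from 0.09 for Myoz2 to 0.92 for Tnnt1 and Tnnc1, but their SEs were 0.74 to 1.77, and none passed (adjusted p 0.816 to 0.994). Over 13833 genes the median was 0.0080 and 0.0434% passed, with 1235 at an unadjusted p under 0.05. None of the 9 members or of their 9 fast counterparts separated the genotypes without overlap. No member passed with a replicate block for the mouse number either, although calls among all genes went from 6 to 110.

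The sign of the genotype difference at 19 mo rested on V338Y mouse 5. Without this mouse all 9 estimates were negative, from -0.45 for Casq2 to -3.90 for Myl3, with -2.80 for Tnnt1 and -2.96 for Tnni1. Leaving out both mice numbered 5, an alternative chosen after seeing the data, gave 2 positive and 7 negative estimates, among them -2.48 for Tnnc1. Leaving out any other mouse kept at least 7 of 9 positive. No member passed the threshold in any of these fits.

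**Figure D2:**
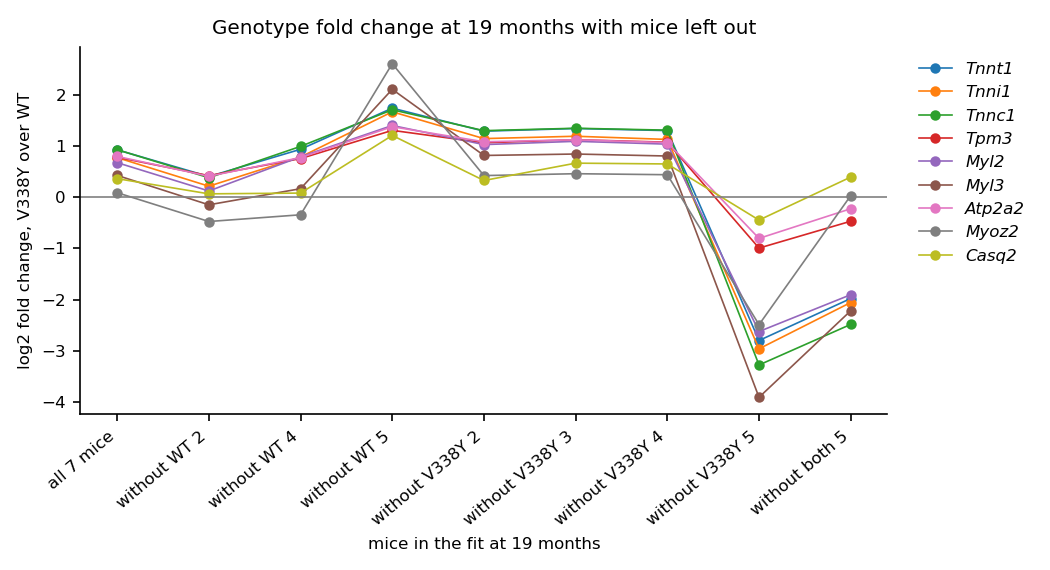
Log2 fold change of V338Y over WT mice at 19 mo (y axis) for the 9 slow isoform genes with all 7 mice and with the named mice left out of the fit (x axis); lines join the values of a gene. All 9 genes fall below 0 without V338Y mouse 5, with Myl3 at -3.90.

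The second question was how the slow isoforms differ between 19 and 3 mo, with the reservation on sex given above. In WT mice 7 of 9 members were higher at 19 mo at an adjusted p under 0.05, where 18.3% of all 13657 genes were called higher, 17.8% lower and 36.2% in either direction. The 3 troponin genes rose by log2 fold changes of 4.64 ± 0.91 for Tnni1 (adjusted p = 0.0048), 3.58 ± 0.73 for Tnnt1 (adjusted p = 0.0056) and 3.54 ± 0.80 for Tnnc1 (adjusted p = 0.0088). The light chains rose by 3.96 ± 1.07 for Myl3 and 3.62 ± 0.88 for Myl2. Tpm3 and Atp2a2 rose less, by 1.41 ± 0.34 and 1.27 ± 0.37. Myoz2 at 1.38 ± 0.91 and Casq2 at 0.89 ± 0.40 did not pass (adjusted p of 0.258 and 0.106). The median over the 9 members was 3.54, against 0.02 over all genes.

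Of the 7 called genes, Tnnt1, Tnni1 and Tpm3 were higher in all 3 WT mice of 19 mo than in all 4 of 3 mo, an order met by 21.7% of all genes. For the other members WT mouse 2 of 19 mo lay within or below the young range, as with 1.06 CPM of Myl3 against 0.725 to 4.25 CPM. The calls depended on how the spread was estimated, since in a fit of all 15 mice only Tnni1 passed. With WT mouse 2 left out all 9 members passed, and with WT mouse 5 left out 5 passed and Myoz2 turned to -1.15.

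In V338Y mice all 9 members again had positive fold changes between 3 and 19 mo, and none passed. The estimates ran from 0.66 ± 0.55 for Casq2 to 3.31 ± 1.49 for Tnnc1 with a median of 2.12, against 0.07 over all genes. Atp2a2 came nearest to the threshold, at 1.90 ± 0.73 with an adjusted p of 0.0549, followed by Tpm3 at 1.90 ± 0.79 (adjusted p = 0.0721) and Tnnt1 at 3.25 ± 1.36 (adjusted p = 0.0741). Of 13868 genes, 46.9% passed in either direction, 24.4% higher and 22.5% lower. Leaving out V338Y mouse 5 of 19 mo turned 7 of the 9 estimates negative, and Myoz2 then passed as lower, at -1.56. Leaving out V338Y mouse 3 of 19 mo gave 5 calls, all higher, for Tnnt1, Tnni1, Tnnc1, Tpm3 and Atp2a2. In the fit of all 15 mice Tnnt1, Tnnc1, Tpm3 and Atp2a2 were called higher.

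The difference between genotypes in the change with age was tested as an interaction over all 15 mice. No member passed, with log2 values from -1.79 ± 2.10 for Tnni1 to 0.63 ± 0.94 for Atp2a2 and a median of -0.33. Of 14128 genes 0.0% passed in edgeR, 1361 had an unadjusted p under 0.05, and DESeq2 called 26. The 7 calls in WT and 0 calls in V338Y mice are therefore not shown to differ.

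**Figure D3:**
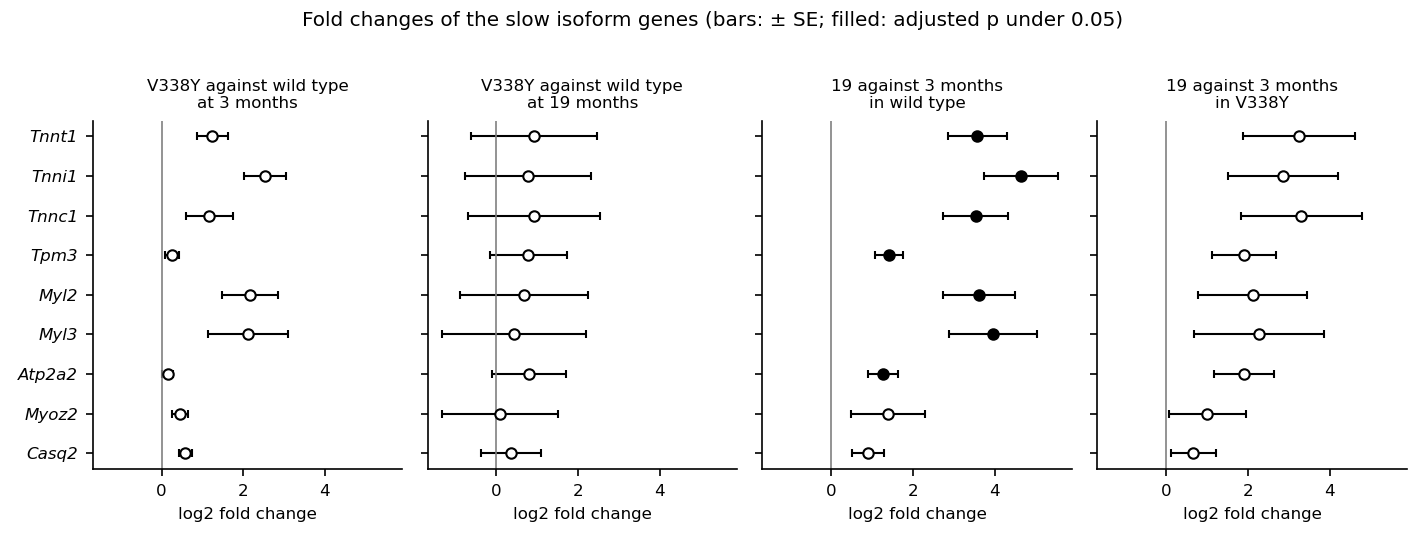
Log2 fold changes (x axis) ± SE of the 9 slow isoform genes in the 4 comparisons of 2 groups; filled points passed an adjusted p of 0.05 in edgeR's quasi-likelihood test. The 7 filled points are all in the comparison of 19 with 3 mo in WT mice, from 1.27 for Atp2a2 to 4.64 for Tnni1.

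The fast counterparts went the other way with age, apart from the fast pump. In WT mice 6 of 9 passed as lower and Atp2a1, the pump of fast fibers, as higher, and in V338Y mice 8 passed as lower and Atp2a1 as higher, where 17.8% and 22.5% of all genes were called lower. The fast essential light chain Myl1 fell by 1.04 on the log2 scale in WT and by 1.53 in V338Y mice, and the fast troponin C Tnnc2 fell by 0.93 and by 1.34. Atp2a1 rose by 0.95 ± 0.14 and by 0.69 ± 0.22. The ratio of each slow gene to its counterpart in the same mouse was compared by exact two-sided permutation tests, in which 0 of 36 passed after Benjamini-Hochberg adjustment and 5 had an unadjusted p under 0.05. The smallest p that these groups allow is 0.029, so a single ratio could not pass after adjustment over 36 tests. All 5 were higher at 19 mo, for Tnnt1, Tnni1, Tnnc1 and Tpm3 in WT mice and for Tpm3 in V338Y mice. Of the summed counts of Tnnt1 and Tnnt3, not scaled by length, Tnnt1 made up 0.0080 to 0.0413% in mice of 3 mo. At 19 mo it made up 0.0267 to 0.552% in WT and 0.0054 to 2.59% in V338Y mice.

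Other genes of the slow program were read from a list of 10. In WT mice 5 were called higher and none lower at 19 mo, against 18.3% and 17.8% of all genes, among them Myh7 with a log2 fold change of 5.91 ± 1.01, the light chain Myl6b with 2.58 ± 0.31, the SERCA inhibitor sarcolipin (Sln) with 2.81 ± 0.37 and slow myosin-binding protein C (Mybpc1) with 0.65 ± 0.19. In V338Y mice 3 were higher, namely Sln at 3.28 ± 0.93, Myl6b at 1.47 ± 0.39 and phospholamban (Pln), the inhibitor of SERCA2, at 1.25 ± 0.33, and the cardiac actin gene Actc1 was lower at -1.41 ± 0.41. These 4 of 10 stand against the 46.9% of all genes called in V338Y mice. Of 21 regulators of fiber type, 9 were called higher and 1 lower in WT mice, and 8 higher and 0 lower in V338Y mice. All genes were called higher in 18.3% and 24.4%, and in either direction in 36.2% and 46.9%. In V338Y mice the share of regulators called in either direction was thus below that of all genes, but the share called higher was above it. Nfatc1 rose by 1.69 ± 0.11 in WT and 1.42 ± 0.16 in V338Y mice, Nfatc2 by 1.70 ± 0.12 and 1.31 ± 0.14, and Mef2d by 1.19 ± 0.12 and 1.03 ± 0.13. Tead1 rose by 1.69 ± 0.14 and 1.28 ± 0.24, and the coactivator Vgll2 by 2.57 ± 0.34 and 1.85 ± 0.32. The regulator called lower in WT mice, named here after its value was seen, was Rcan1, a calcineurin inhibitor that is itself a target of calcineurin and NFAT signalling, at -1.23 ± 0.35 (adjusted p = 0.0239), and its value in V338Y mice was -0.54 ± 0.37 (adjusted p = 0.255).

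Of 5 other myosin heavy chains, the embryonic Myh3 (2.49 ± 0.45) and neonatal Myh8 (0.62 ± 0.20) were called higher in WT mice at 19 mo and none in V338Y mice, against 18.3% and 24.4% of all genes. Of 8 genes of denervation and regeneration, 5 were called higher in WT and 4 in V338Y mice, against 18.3% and 24.4% of all genes, with Runx1 at 1.93 ± 0.21 and 2.57 ± 0.37 and the adhesion molecule Ncam1 at 1.18 ± 0.18 and 1.58 ± 0.36. No gene of these 4 lists passed in either comparison of genotypes or in the interaction. Summed smooth muscle markers were 106 to 151 CPM at 3 mo and 168 to 281 CPM at 19 mo, and endothelial markers 132 to 177 and 190 to 328 CPM, so that both sums separated the ages without overlap. Schwann cell markers were at 39.1 to 52.0 CPM at 3 mo and 50.9 to 104 CPM at 19 mo, and macrophage markers at 95.3 to 152 and 133 to 225 CPM. Of 5 macrophage genes 3 were called higher with age in each genotype, and of 5 endothelial genes 2 in WT and 3 in V338Y mice. Over all genes 18.3% were called higher in WT and 24.4% in V338Y mice. Their part in the age differences was not tested.

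The third question was whether the members vary together from mouse to mouse once the mean of each group is taken out. Over 15 mice all 36 pairs were positively correlated, with Pearson's r from 0.686 to 0.992 and a median of 0.900. All 36 passed an adjusted p of 0.05 by r and 29 by Spearman's rho, in exact permutation tests over the 82944 arrangements of mice within groups. The share of pairs of other genes that would pass was not examined. These counts are therefore not shown to be particular to the slow isoforms. The arrangements treat the mice of each group as unlinked. A link between same-numbered mice of 19 mo is possible but not shown, and a test that keeps those mice together was not run. Tpm3 and Atp2a2 were the closest pair (r = 0.992, rho = 0.971), followed by Tnnt1 and Tnnc1 (r = 0.985, rho = 0.971), for which the p by r was 2.41e-05. The smallest p that the arrangements can give, 1.21e-05, was met by Tnnc1 and Myl2 (r = 0.977). Among the 10 pairs of the troponins and light chains r was 0.890 to 0.985, and all 10 passed by both measures.

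Casq2 was the least tied to the others. Its 8 pairs had r from 0.686 with Myl3 to 0.836 with Tpm3, and by rho 1 of 8 passed, that with Tpm3 (rho = 0.650). For Myoz2, r was 0.818 to 0.922 and 7 of 8 passed by rho, all but Casq2. Leaving out the pair of mice farthest from the median lowered the median r from 0.900 to 0.862, and that of Myoz2 with Casq2 fell from 0.818 to 0.196, so their relation rested on the mice numbered 5. In the 8 mice of 3 mo alone the median r was 0.748, with 0.967 for Tpm3 and Atp2a2, 0.950 for Tnnc1 and Myl2 and -0.022 for Myoz2 and Casq2. In the 7 mice of 19 mo the median was 0.965.

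**Figure D4:**
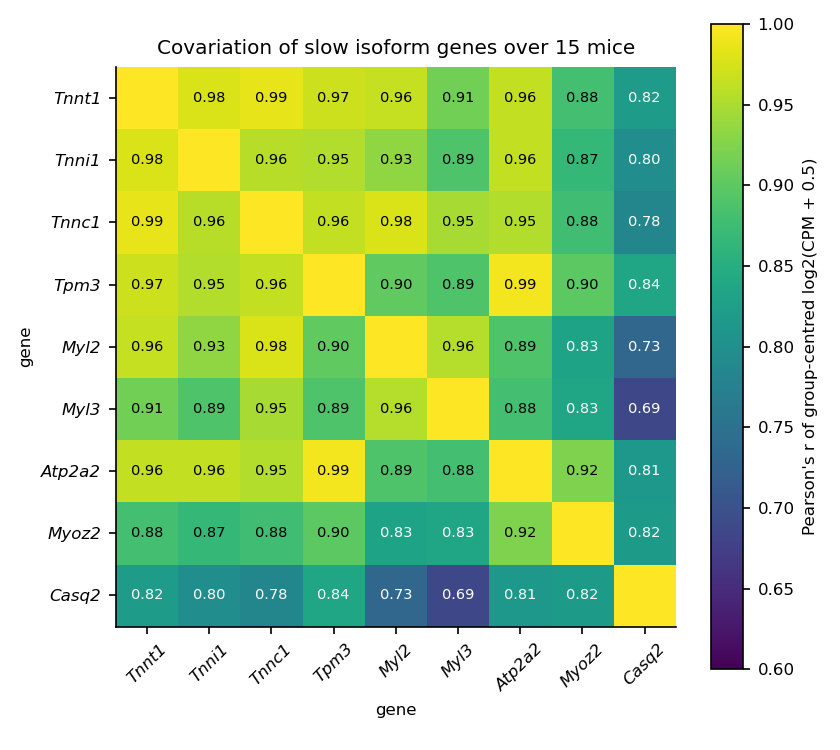
Pearson's r of log2(CPM + 0.5), centred on each group, between all pairs of the 9 slow isoform genes over 15 mice (color and printed value, gene names on both axes). The troponin and light chain genes, with Tpm3 and Atp2a2, form a block from 0.88 upward, and the lowest values are in the row of Casq2, down to 0.69.

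Which myosin heavy chain the members followed was examined after the data had been seen. Of the 36 relations of 9 members with Myh7 (type I), Myh2 (type IIa), Myh1 (type IIx) and Myh4 (type IIb), 8 of 9 passed by r with Myh7, 9 with Myh2, 2 with Myh1 and 9, all negative, with Myh4, while by rho the numbers were 8, 9, 2 and 0. The sign with Myh4 differed between ages, since r of the 9 members was 0.312 to 0.559 in the 8 mice of 3 mo and -0.969 to -0.920 in the 7 mice of 19 mo. With Myh7, Myh2 and Myh1 r was positive at both ages for every member, from 0.153 upward at 3 mo and from 0.652 upward at 19 mo. Myl2 and Myl3 lay closest to Myh7 (r = 0.977 and 0.975, rho = 0.961 and 0.971). Myoz2 was closer to Myh2 (r = 0.967, rho = 0.911) than to Myh7 (r = 0.776, rho = 0.779), and Casq2 was closest to Myh1 (r = 0.949, rho = 0.950) and did not pass with Myh7 (r = 0.694, adjusted p = 0.0742, exact permutation test). The differences between these correlations were not tested, and the share of other genes that would pass with each myosin was not examined. Without the pair of mice farthest from the median, r of Myoz2 was 0.749 with Myh2 and 0.664 with Myh7, a smaller gap than over all mice. It was then 0.824 for Casq2 with Myh1 and 0.946 for Myl2 with Myh7.

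The levels in some single mice went with these ties, and those in others did not. WT mouse 4 of 19 mo had 181 CPM of Myh7 but 411 CPM of Myh2 and 2264 CPM of Myh1, and it was high for the troponins and light chains and not for Myoz2 or Casq2. V338Y mouse 2 of 19 mo had 28.3 CPM of Myh7 and 6693 CPM of Myh1, and 26.2 CPM of Casq2. The mice numbered 5 were high for all of these, with 320 and 1210 CPM of Myh7, 4246 and 4880 CPM of Myh2 and 9030 and 14856 CPM of Myh1 in the WT and the V338Y mouse. By transcript per length, Myh4 made up 54.1% of the 4 adult myosins in V338Y mouse 5, 76.5% in WT mouse 5, 84.9% in V338Y mouse 2 of 19 mo and 94.6 to 96.9% in the other 12 mice. Myh7 was at most 2.04%, in V338Y mouse 5. Other mice departed from the ties of Casq2 and Myoz2. V338Y mouse 3 of 19 mo had 3541 CPM of Myh1 but only 7.98 CPM of Casq2. Between groups, Myh2 was at 876 CPM in V338Y mouse 2 of 19 mo and 878 CPM in V338Y mouse 2 of 3 mo. Their Myoz2 levels were 8.62 and 30.2 CPM.

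**Figure D5:**
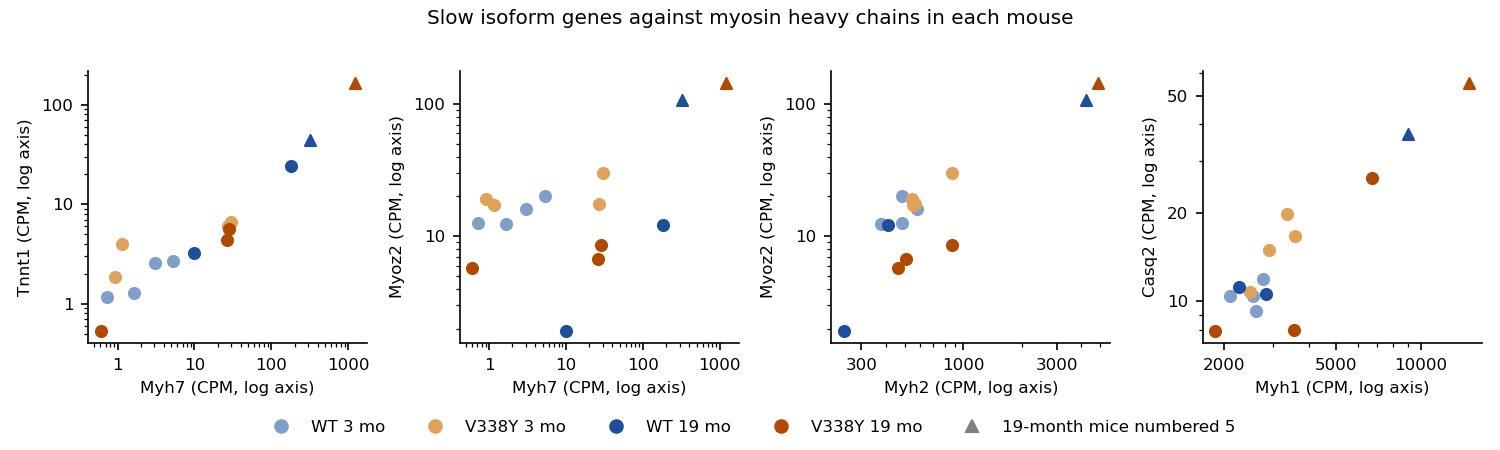
CPM of a slow isoform gene (y) against that of a myosin heavy chain (x) in each of 15 mice, log axes; colors give genotype and age, triangles the 19 mo mice numbered 5. By r centred on each group, Tnnt1 follows Myh7, Myoz2 follows Myh2 more closely than Myh7, and Casq2 follows Myh1, though single mice depart from this. V338Y mouse 5 has 14856 CPM of Myh1 and 55.4 CPM of Casq2.

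Genes outside the list with the pattern most like the mean of the members were sought among 9510 genes over 15 mice, as a description and with no test. The highest r was 0.965 for Slc25a34, a mitochondrial carrier, and the list went on with Tmem131l, Lrrn1, Slc25a20, Acadl, Plin5, Hsdl2, Myom3, Timm10 and Slc12a4 at 0.959 to 0.934. Slc25a20 is the carnitine-acylcarnitine carrier, Acadl an acyl-CoA dehydrogenase of fatty acid oxidation, Plin5 a lipid droplet protein of oxidative tissue and Myom3 an M-band protein of the sarcomere. Myom3 ranged from 6.47 to 178 CPM. Slc25a20, Plin5 and Timm10 were highest in WT mouse 3 of 3 mo and the other 7 in V338Y mouse 5. At the opposite end, Casq1, the fast counterpart of Casq2, had r = -0.955 and was among the 5 most opposite genes with Cib2 (-0.968), Tmem233, Klhl8 and Camk2a.

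Some reads could belong to neighbors. On the opposite strand, exons of Myl2 overlap 60 bases of Ccdc63, those of Myl3 95 bases of Pth1r and those of Atp2a2 83 bases of Gm43361, whose level was not analysed here. Whether the counting used strand is not given in the sources used here. Ccdc63 was at no more than 0.121 CPM and Pth1r at 0.517 to 4.48 CPM, against up to 240 CPM of Myl2 and 204 CPM of Myl3, so the low values of Myl3 are the less certain ones. The Tpm3-like genes Tpm3-rs7 and Tpm3-rs2 were at no more than 0.145 and 0 CPM.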

How the data were processed

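RNA of quadriceps (named muscle in the labels) was sequenced by the authors, aligned with STAR 2.4.2a per the processing notes and counted per gene. The processing notes list the genome builds GRCm38 and GRCh37, whereas the paper names GRCm37, and the build used is not settled here. The deposited files hold expected counts (RSEM) as whole numbers, without normalization, for 15 mice, and how the estimates were rounded is not given in the sources used here. Gene symbols, exon lengths and positions were taken from GENCODE (GRCm38) and matched 37607 of 39179 identifiers. No pair of the 105 pairs of files was identical.

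Groups follow the labels. A gene was kept when 50% or more of the mice in a compared group had 10 or more counts, libraries were scaled by TMM, and groups were compared in R 4.3.3 with the quasi-likelihood test of edgeR 4.0.16 (limma 3.58.1; DESeq2 1.42.0 as an alternative), adjusted by Benjamini-Hochberg over all tested genes and called at 0.05. The code was tested on simulated data. The SE given with a fold change was calculated as its absolute log2 value divided by the square root of the quasi-likelihood F statistic. It is not a standard error reported by the fit. Correlations used log2(CPM + 0.5). The mice are separate animals with no batch in their labels. At 19 mo r of same-numbered mice of the genotypes was 0.132, 0.239 and 0.400, within the -0.407 to 0.467 of other pairs. However, every same-numbered r was positive. Of the other pairs, all were negative except WT mouse 2 with V338Y mouse 3, at 0.467. A pairing at 19 mo is therefore neither shown nor excluded, and the main tests, which take the mice as unpaired, would not account for it. The block by mouse number is an alternative only.

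Members and gene lists were chosen with earlier results of these data known. Genes named are the members, their fast counterparts, Myh7, up to 4 called genes of each list and comparison, and the 10 genes most like the members with a mean of at least 5 CPM. Other myosins in the correlations were added after the data were seen. Alternatives were other scalings, filters, DESeq2, a replicate block, a fit of all mice and leaving out each mouse.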

Additional observations from a re-analysis of the deposited data

Results flagged for a closer look

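Single mice stood far from the rest of their group for 10 values among the 54 sets of 4 mice examined, by the ratio of the gap to the range (Dixon's criterion). Chance would flag about 1 in 20 groups only for normally distributed values, and the rate for these CPM of covarying genes is not known. The 3 WT mice of 19 mo were too few to examine. Mouse 5 of the V338Y group at 19 mo accounted for 8 of them, with Tnnt1 at 166.1 CPM, Tnni1 at 94.63, Tnnc1 at 120.4, Tpm3 at 271.6, Myl2 at 239.7, Myl3 at 203.7, Atp2a2 at 651.9 and Myoz2 at 144.7 CPM, each higher than in its 3 group mates, and these are values of 1 animal rather than independent events. At 3 mo, Tnni1 was low in V338Y mouse 4 at 0.5763 CPM against 4.14 to 4.71 CPM in the other 3, and Myoz2 was high in V338Y mouse 2 at 30.21 CPM against 17.2 to 19.0 CPM.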

How the results depend on the processing

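At 3 mo the number of members called between genotypes was 0, and 1 (Tnni1) in DESeq2, with no filter on low counts, and across mice left out 0 to 1. At 19 mo and for the interaction it was 0 in every alternative. For age in WT mice 7 were called, 2 with the replicate block, 1 in the fit of all 15 mice, and 5 to 9 with a mouse left out. For age in V338Y mice 0 were called, 3 with no filter, 1 with the replicate block (Myoz2, lower), 4 in the fit of all 15 mice, and 0 to 5 with a mouse left out; DESeq2 gave an adjusted p for 2 of the 9 only. Other scalings and edgeR's own filter changed no count. At 3 mo r of same-numbered mice was -0.162 to 0.141, and mice of different ages share numbers only. Calls among all genes went with the block from 10 to 14 between genotypes at 3 mo and from 4940 to 2229 for age in WT. Between genotypes at 3 mo 66 were called in DESeq2 and 33 with no filter, and at 19 mo 62 and 14.

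With the block, fold changes with age turned negative in WT for Myoz2 (-1.31) and Casq2 (-0.0297), and in V338Y mice for Tnnt1 (-0.65), Tnni1 (-0.74), Tnnc1 (-1.22), Myl2 (-1.49), Myl3 (-2.25), Myoz2 (-1.64) and Casq2 (-0.18). Only mice whose number occurs at both ages entered these differences, which left out the 19 mo mice numbered 5. Without both mice numbered 5 the genotype difference at 19 mo was -1.98 for Tnnt1, -2.06 for Tnni1, -2.48 for Tnnc1, -0.47 for Tpm3, -1.90 for Myl2, -2.22 for Myl3 and -0.23 for Atp2a2, and the interaction -0.74 for Tpm3 and -0.37 for Atp2a2.

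With single mice left out, fold changes of the genes whose sign turned ran as follows. Between genotypes at 19 mo they ran from -2.80 to 1.74 for Tnnt1, -2.96 to 1.66 for Tnni1, -3.27 to 1.70 for Tnnc1, -0.99 to 1.30 for Tpm3, -2.62 to 1.40 for Myl2, -3.90 to 2.10 for Myl3, -0.80 to 1.37 for Atp2a2, -2.49 to 2.60 for Myoz2 and -0.45 to 1.203 for Casq2. For age they ran from -1.15 to 1.95 for Myoz2 in WT, and in V338Y mice from -0.45 to 3.66 for Tnnt1, -0.84 to 3.26 for Tnni1, -0.87 to 3.90 for Tnnc1, -1.18 to 2.71 for Myl2, -2.06 to 2.91 for Myl3, -1.56 to 1.37 for Myoz2 and -0.15 to 0.95 for Casq2. The interaction ran from -4.04 to 0.49 for Tnnt1, -4.42 to 0.55 for Tnnc1, -1.26 to 1.02 for Tpm3, -0.95 to 1.21 for Atp2a2, -2.94 to 2.14 for Myoz2 and -1.03 to 0.60 for Casq2. The cause was not tested. Pairs that passed were 36 with a pseudocount of 2 and 26 to 36 with a mouse left out.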
